A study of Mus musculus with 2 samples.

Results

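The mRNAs described here are those of mouse genes whose names on the array begin with Zbtb, Zscan or Zkscan and a number. The name rule found 52 genes, represented by 54 RefSeq coding accessions and 83 probes, among 18743 coding accessions on the array. Of the accessions, 37 were Zbtb, 9 Zscan and 8 Zkscan. The rule used names and no measured value, though it was set with earlier results of these data known. Zbtb8os matched the rule by its name but encodes archease, a cofactor of the tRNA ligase complex, and is not a zinc finger gene; it was kept in the counts.

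The study measured how mRNAs of NIH3T3 cells, an immortalised line of mouse embryo fibroblasts, are divided between polysomes and lighter fractions of a sucrose gradient. One condition was untreated cells and the other was cells given 10 µM thapsigargin for 3 h, a drug that blocks the calcium pump of the endoplasmic reticulum and causes stress there. Polysomal RNA (P, labelled with Cy3) and RNA of the free and monosome fractions (FM, labelled with Cy5) were hybridised together, with 1 array per condition and RNA of 3 preparations pooled on each. No spread between preparations can therefore be given, and no test between the conditions was made. Differences are described against those of all coding mRNAs on the same arrays, and in such bulk samples fewer cells and less RNA per cell cannot be told apart.

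Most Zbtb genes encode transcription factors with a BTB domain at the start of the protein and zinc fingers of the C2H2 kind, which bind DNA, at its end. The BTB domain pairs the proteins and, in many of them, binds corepressors such as Ncor1 and Bcor, and some BTB proteins are adaptors of the ubiquitin ligase scaffold Cul3. Zscan and Zkscan genes encode zinc finger proteins with a SCAN domain, a pairing domain related to retroviral capsid, and many Zkscan proteins also carry a KRAB domain, which recruits the corepressor Trim28. When the endoplasmic reticulum is stressed, phosphorylation of the initiation factor eIF2 lowers the translation of most mRNAs, while some mRNAs move onto polysomes.

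The measure of translation efficiency was log2 P/FM, where 0 means equal signal in both fractions, and the change was thapsigargin minus control. A, the average of the log2 signals of both channels, stood for the abundance of an mRNA. Signals are background-subtracted brightness of the spots in arbitrary units and were not normalised between channels or arrays; those of an mRNA with several probes are geometric means over the probes. An mRNA was analysed if A was above 4.5 on both arrays. The terms of the study were used for classes: inducible mRNAs gained 1 or more from a control log2 P/FM of 0 or less, sensitive mRNAs fell by 0.8 or more, and resistant mRNAs were at 0.8 or more on both arrays.

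Each value rests on 60-base probes, and where a probe lies decides which transcript form is read. The first 30 bases are printed for the probes of the mRNAs with the 5 largest rises and the 5 largest falls among those whose every probe was well above background in both channels on both arrays. They are given 5′ to 3′ with the mm9 position of the whole probe and its strand. Whether a probe lies in coding sequence or in an untranslated region was not determined here.
Zbtb44 (chr9:30882834-30882893, + strand): ggtgacagtggccatagctaaattacttgg
Zbtb38 (chr9:96586830-96586889, - strand): aagctgttttacaaaagagggagaaaacct
Zbtb48 (chr4:151394300-151394359, - strand): gcgacacaaaggtgtgagaaagttcgagtg
Zkscan3, first probe (chr13:21479711-21479770, - strand): ataccttattcaacatcagagaagacacac
Zkscan3, other probe (chr13:21479914-21479973, - strand): ttttttgttccagaaccttactgggaaagt
Zbtb41 (chr1:141345338-141345397, + strand): tggttgaagtcttggtgaaagaaaatagga
Zbtb12 (chr17:35033725-35033784, + strand): gctgagggaatgtgggatcccaaagaaaga
Zbtb17 (chr4:141022780-141022839, + strand): cgcttgtgattcctgtggggacaagttcct
Zkscan17 (chr11:59299084-59299143, - strand): taagactttggaacagagtttctttttctg
Zbtb22 (chr17:34055947-34056006, + strand): cagagccccaccttcacggagtagtgccaa
Zbtb45 (chr7:13591274-13591333, - strand): agaaccctatttctctcctacacttgctta

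Markers of cell types and mRNAs of the stress response were read as a check. All 8 fibroblast markers passed the filter, with A between 5.63 and 15.7, none of 4 epithelial and 3 endothelial markers did, and 1 of 3 blood markers did (Cd68). Between 42.5% and 46.3% of spots were well above background in a channel, and none was saturated. The mRNAs of Atf4, Ddit3, Ppp1r15a and Hspa5, which stress of the endoplasmic reticulum is known to raise, had changes in log2 P/FM of 3.42, 2.58, 2.45 and 1.36. The 10 spike-in probes changed in the opposite direction, by a median of -2.44 (-2.67 to -2.16), and whether they were added equally to both fractions is not given in the sources used here.

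In control cells the BTB and SCAN zinc finger mRNAs lay mostly in the lighter fractions, and under thapsigargin their median log2 P/FM was higher while that of all mRNAs was lower. The 41 accessions of 40 genes that passed the filter stood at a median of -0.31 on the control array, against 0.34 for all 10033 coding mRNAs that passed. Under thapsigargin their median was 0.06, against -0.29 for all. The median change was 0.44 (25th to 75th percentile -0.47 to 0.96, range -1.26 to 2.57), against -0.71 for all mRNAs, a difference of 1.15. This direction depended on dim mRNAs: the median was 0.04 among the 28 members with every probe well above background and -0.74 among the 13 with A above 7, where all mRNAs had -0.83 and -1.10. The direction of all mRNAs depended on the processing, since 29.3% of them were higher under thapsigargin, but 71.3% with normexp background correction and 94.9% with spike-in centring.

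Counts showed the same shift. In control cells 12 of the 41 were at or above 0 (63.5% of all mRNAs were), and under thapsigargin 24 were (37.4% of all). Log2 P/FM was higher under thapsigargin for 27 (29.3% of all) and lower for 14. With every probe well above background 15 were higher and 13 lower, where 26.2% of all such mRNAs were higher. With A above 7 these numbers were 4 and 9 (19.4% of all such mRNAs higher). With each array centred on its spike-in probes they were 41 and 0 (94.9% of all higher). Of the 41, 14 crossed from below 0 to 0 or above (12.5% of all), and 2 crossed the other way (38.6% of all). Of the 41, 10 were inducible, or 24.4%, where 8.86% of all mRNAs were, and the same 10 were the ones higher by 1 or more (9.90% of all). Sensitive members numbered 6, or 14.6% (47.0% of all), with 4 lower by 1 or more (40.8% of all), and 1 was resistant (3.00% of all). In all, 33 of 41 changed by more than the median of all mRNAs.

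Of the 10 inducible members, 7 had a probe that was not well above background. Among the 28 members with every probe well above background, 3 were inducible where 7.52% of all such mRNAs were, and 6 were sensitive, or 21.4%, where 50.8% were. The members not fully measured had a lower A, with a median over both arrays of 5.35 against 7.0. Since a dim probe defines them, this is no separate result on abundance. When only the probes that were well above background were averaged, an alternative chosen after the data were seen, 10 of 39 members were inducible, or 25.6% (9.20% of all).

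**Figure D1:**
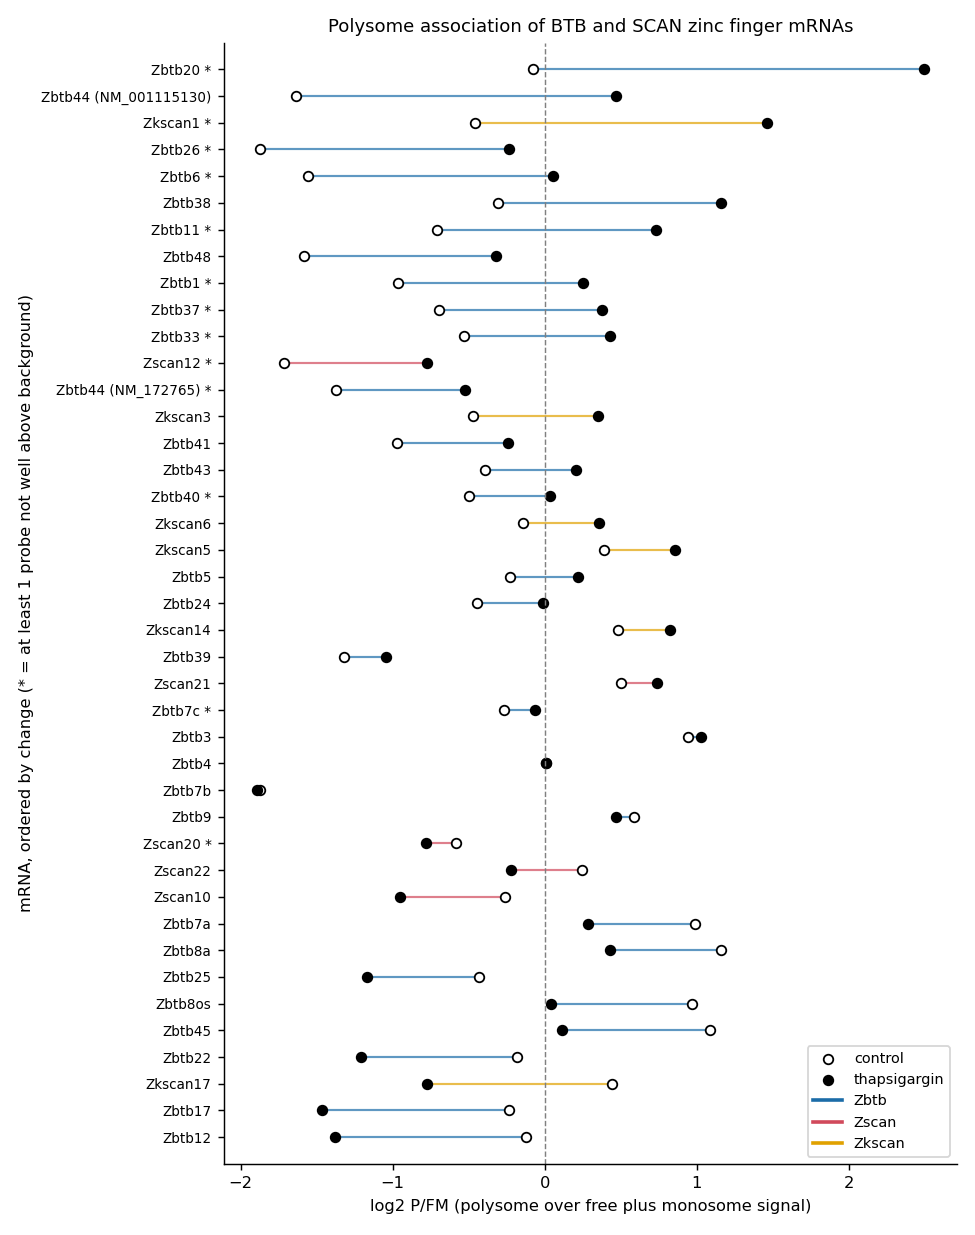
Log2 P/FM of the 41 BTB and SCAN zinc finger mRNAs that passed the filter on the control array and on the thapsigargin array, 1 value per array, ordered by their change. The axis is log2 of polysome over free plus monosome signal. Most lines in the upper part run to the right and the 14 lowest run to the left; the largest falls are the 6 sensitive mRNAs, whose direction turned when arrays were centred on spike-in probes.

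The signals of each fraction are given separately here. The study labelled the fractions in their own RNA proportions, with more in P in control cells and more in FM under stress. A change in the signal of 1 fraction is therefore not a change in mRNA amount alone. The P signal was higher under thapsigargin for 31 of the 41 members (50.7% of all mRNAs), by a median of 0.80 on the log2 scale, against 0.02 for all. The FM signal was higher for 29 (86.6% of all), by a median of 0.29 against 0.72. A rise in P together with a fall in FM was seen for 10 members, or 24.4%, against 8.71% of all mRNAs; among the fully measured members it was 2 of 28, or 7.14%. Both fractions were higher for 21 members (42% of all mRNAs), P was lower and FM higher for 8 (44.5%), and both were lower for 2 (4.73%). A was higher by 1 or more for 7 members (11.7% of all) and lower by 1 or more for none (0.698% of all).

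**Figure D2:**
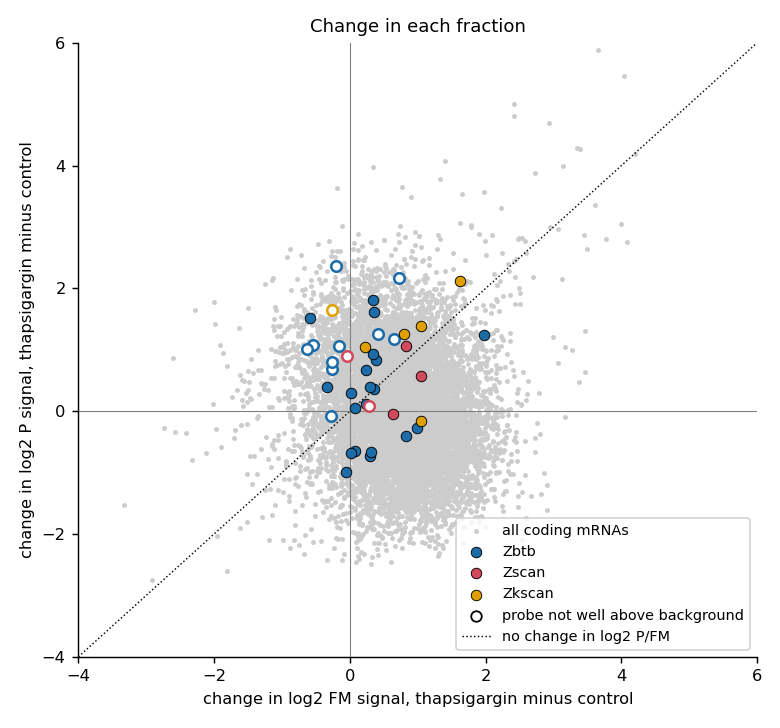
Change in the log2 FM signal against change in the log2 P signal, thapsigargin minus control, for all 10033 coding mRNAs and for the 41 members by family. Points above the dotted line gained in log2 P/FM. Open circles are members with a probe not well above background, and they hold most of the points with higher P and lower FM.

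The inducible mRNAs with every probe well above background were those of Zbtb44, Zbtb38 and Zbtb48. Zbtb38, a relative of Kaiso that binds methylated DNA, had P signals of 29.6 in control and 103 in thapsigargin and FM signals of 36.7 and 46.4. Its log2 P/FM went from -0.31 to 1.16, a rise of 1.47, because P rose far more than FM. Zbtb48 is a protein bound to telomeres. Its P signal was 53.3 in control and 164 in thapsigargin, its FM signal 159 and 204, and its log2 P/FM rose from -1.58 to -0.32, by 1.26. It stayed below 0, so more of its signal was in the lighter fractions on both arrays.

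Zbtb44 was read by 2 accessions with 1 probe each. The first (NM_001115130) had P signals of 26.5 and 75.6 and FM signals of 82.2 and 54.6, and its log2 P/FM rose from -1.63 to 0.47, by 2.10. This was the only fully measured member besides Zbtb41 with higher P and lower FM. The other accession (NM_172765) had a probe that was not well above background in P on the control array. At its measured signals log2 P/FM went from -1.38 in control to -0.53 in thapsigargin, a change of 0.85, and the control value is uncertain. Both values were higher under thapsigargin, the second by a size that these data do not fix. Whether the probes read different transcript forms was not determined.

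The remaining 7 inducible members were dimmer. Zbtb20, a repressor of alpha-fetoprotein in liver, had P signals of 29.4 and 151, and its FM signals of 31.1 and 26.9 were not well above background on either array. Its log2 P/FM was at least -0.08 in control and at least 2.49 in thapsigargin, so the size of its change is not fixed by these data. The control value may lie above 0, so its place in the inducible class is uncertain as well. Zkscan1 had 4 probes, of which 2 were well above background throughout. Its log2 P/FM went from -0.46 to 1.46, a change of 1.92 ± 1.31 (SD over 4 probes), and 2.34 on the measured probes alone.

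Zbtb6 and Zbtb26, which lie side by side on chromosome 2, had similar averages over their probes, dim ones included. Zbtb6 went from -1.56 to 0.06, a change of 1.61 ± 1.05 (SD over 3 probes), with 2.76 on its 1 measured probe. Zbtb26 went from -1.87 to -0.23, a change of 1.64 ± 0.15 (SD over 2 probes), with 1.74 on its 1 measured probe. Both had lower FM and higher P under thapsigargin. Zbtb11 went from -0.71 to 0.73, a change of 1.44 ± 0.46 (SD over 3 probes). Zbtb1, needed for lymphoid development, went from -0.97 to 0.25, by 1.22 ± 0.47 (SD over 2 probes). Zbtb37 went from -0.69 to 0.38, by 1.07 ± 0.67, with 0.60 on its 1 measured probe, which is under the threshold for an inducible mRNA.

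Members with smaller positive changes fell into those below and those above 0 in control cells. Zkscan3, a repressor of autophagy genes, had P signals of 179 and 369 and FM signals of 248 and 289. Its log2 P/FM went from -0.47 to 0.35, a change of 0.82 with an SD of 0.004 over its 2 probes, the closest match between probes among the members. Zbtb41 had P signals of 48 and 63 and FM signals of 94.1 and 74.6, and its log2 P/FM went from -0.97 to -0.24, by 0.73. Neither reached the rise of 1 that defines an inducible mRNA.

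Zbtb33 (Kaiso), which binds methylated DNA, went from -0.53 to 0.43. Zscan12 went from -1.72 to -0.77. Zbtb43 went from -0.39 to 0.20. These 3 mRNAs had changes of 0.96, 0.94 and 0.60, and the first 2 had a probe not well above background. On the 1 measured probe of each, Zbtb33 changed by 1.32 from -0.82 and Zscan12 by 1.41 from -1.91, and both would then be inducible. Zbtb5 went from -0.23 to 0.22, and Zbtb24, mutated in a human syndrome of immunodeficiency and unstable centromeres, from -0.44 to -0.01. Zbtb39 stayed in the lighter fractions, at -1.32 and -1.05.

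Zkscan5, Zkscan6 and Zkscan14 had changes in log2 P/FM near the members' median while both fractions grew brighter. Zkscan6 went from -0.14 to 0.36, Zkscan5 from 0.39 to 0.85 and Zkscan14 from 0.48 to 0.82. Their A rose by 1.87, 1.03 and 1.22, which puts all 3 among the 7 members whose A rose by 1 or more; the others were Zbtb25 (1.61), Zbtb11 (1.45), Zbtb20 (1.08) and Zbtb38 (1.07). Zscan21, known from cerebellar granule cells, was similar, at 0.50 and 0.74 with a change in A of 0.94.

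Zbtb3 was the resistant member. Its P signals were 114 and 149 and its FM signals 59.6 and 73.4, which gave log2 P/FM of 0.94 on the control array and 1.03 on the other. It was on the polysome side on both arrays. Zbtb4, a further relative of Kaiso, was at 0.01 on both arrays with its 2 probes changing in opposite directions. Zbtb9 was at 0.59 and 0.47.

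Zbtb7b, the factor ThPOK of CD4 T cells, was among the 3 brightest members and barely differed between the arrays. Its P signals were 334 and 347 and its FM signals 1220 and 1286, giving log2 P/FM of -1.87 and -1.89. Together with Zbtb26 it had the lowest log2 P/FM of the members in control cells, and it had the lowest under thapsigargin. Its relative Zbtb7a, a repressor that helps silence fetal globin, went from 0.98 to 0.28, a change of -0.70 ± 0.35 (SD over 2 probes). Zbtb7c went from -0.27 to -0.06, but its 1 measured probe changed by -0.65.

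For 2 other members the dim and the measured probes also differed in direction. Zbtb40 went from -0.50 to 0.03, with an SD of the change of 1.62 over 2 probes and -0.61 on the measured one. Zscan20 went from -0.59 to -0.78, with 0.45 on the measured probe. Zbtb7c and Zbtb40 stand among the 27 higher members and Zscan20 among the 14 lower ones by their averages, and their direction is uncertain.

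The sensitive members were all fully measured by 1 probe each, and most were bright. Zbtb12 had P signals of 598 and 495 and FM signals of 652 and 1290. Its log2 P/FM fell from -0.12 to -1.38, by 1.26. Zbtb17 (Miz-1), the zinc finger partner of Myc at cell cycle inhibitor genes, had P signals of 394 and 299 and FM signals of 465 and 826. Its log2 P/FM fell from -0.24 to -1.47, by 1.23. In both, most of the fall lay in a brighter FM signal, though that of all mRNAs was also brighter, by a median of 0.72.

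Zkscan17, which binds the histone methyltransferase Nsd1, was the brightest member, with an A over both arrays of 11.0. Its P signals were 2050 and 1832 and its FM signals 1508 and 3132. It fell from 0.44 to -0.77, by 1.22. It crossed from the polysome side to the lighter fractions, but its change was 0.10 after loess within each array and 0.11 with the processed signals of the scanner software. In the other 3 sensitive mRNAs most of the fall lay in a dimmer P signal.

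Zbtb22 had P signals of 277 and 166 and FM signals of 314 and 384, and its log2 P/FM fell from -0.18 to -1.21, by 1.03. Zbtb45 had P signals of 243 and 154 and FM signals of 114 and 142, and it fell from 1.09 to 0.11, by 0.97. Zbtb8os, the archease gene, had P signals of 453 and 228 and FM signals of 231 and 221, and it fell from 0.97 to 0.04, by 0.93. All 6 changes turned to rises of 1.29 to 1.62 when each array was centred on its spike-in probes, which adds 1 constant to every mRNA.

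A further group was lower by less than 0.8. Zbtb25 went from -0.43 to -1.17 while both signals grew, P from 258 to 611 and FM from 348 to 1375. Zbtb8a went from 1.16 to 0.43 and had the highest log2 P/FM of the members in control cells. Zscan10, a factor of embryonic stem cells, went from -0.26 to -0.95, and Zscan22 from 0.24 to -0.22. Relative to the median of all mRNAs, -0.71, these 4 changes lay between -0.03 and 0.25.

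The families differed in their counts, with few members in each. Of 30 Zbtb mRNAs, 9 were inducible and 5 sensitive (8.86% and 47.0% of all mRNAs), with a median change of 0.44, which was -0.01 among those fully measured and -0.83 with A above 7. Of 6 Zkscan mRNAs, 1 was inducible and 1 sensitive, against the same shares, with a median change of 0.48. With A above 7, which left only Zkscan3 and Zkscan17, this median was -0.20. None of 5 Zscan mRNAs was in either class, and their median was -0.20. It became 0.23 when the filter was set at 5.5, which left only Zscan12, Zscan21 and Zscan22. With measured probes alone it was 0.23 too, and Zscan12 was then inducible. No difference between the families was tested.

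The 13 accessions under the filter had no probe well above background throughout. They were those of Zbtb8b, Zbtb10, Zbtb32, Zbtb34, Zbtb42, Zbtb46 with 2 accessions, Zkscan2, Zkscan4, Zscan2, Zscan4c, Zscan5b and Zscan18. They include genes known for other cells, such as Zscan4c of early embryos and Zbtb46 of dendritic cells. No value is given for them, and the arrays do not show that they were absent.

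The change was related to brightness. Across the 41 members the change and the mean A had a Pearson r of -0.59 (Spearman rho -0.56), and across all 10033 mRNAs -0.39 (rho -0.39); these are descriptions over mRNAs read on the same 2 arrays. The 12 members with mean A from 4.5 to 5.5 had a median change of 0.90, where all mRNAs of that range had -0.28. For 15 members from 5.5 to 7 it was 0.47 against -0.22. For 10 members from 7 to 9 it was -0.23 against -0.67, and for 4 members from 9 to 12 it was -0.98 against -1.35. The members lay above all mRNAs of like brightness in each range, and the gap was smaller for brighter mRNAs.

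**Figure D3:**
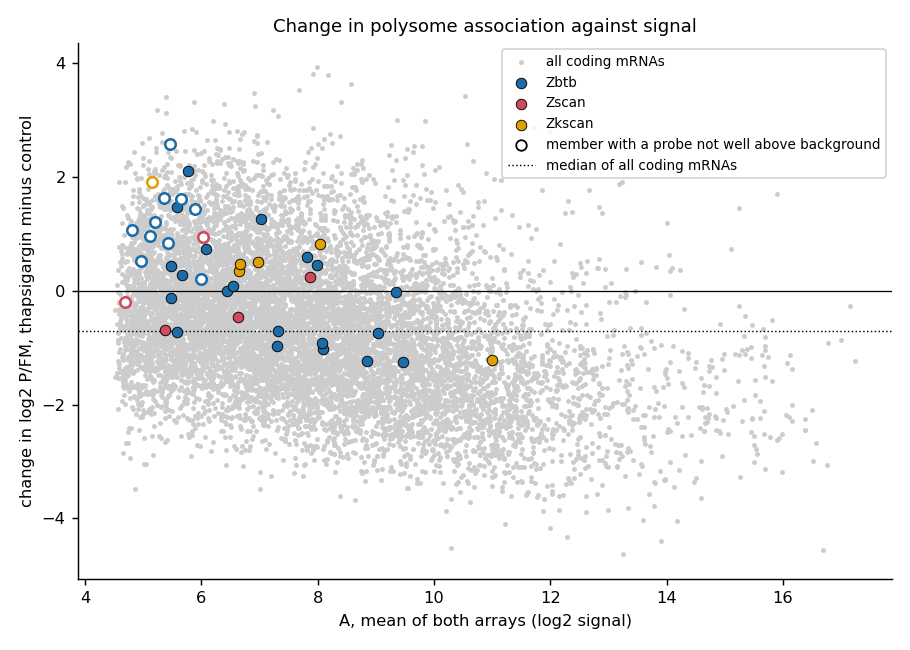
Change in log2 P/FM, thapsigargin minus control, against the mean A of both arrays for the 41 members, over all 10033 coding mRNAs that passed the filter. The inducible members sit mostly at mean A under 7 and the sensitive ones above it.

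The base composition of the probes moved with the change too. Over the 48 of 83 member probes that were well above background throughout, the Pearson r with the GC content of the probe was -0.29 (rho -0.25), and over 13569 coding probes it was -0.28 (rho -0.29). Member probes with under 37% GC had a median change of 1.02 (10 probes), where all probes of that range had -0.16. Between 37% and 42% the median was 0.21 (19 probes) against -0.43, and between 42% and 48% it was 0.55 (12 probes) against -0.73, so the members' medians did not fall steadily. Those with 48% or more had -0.65 (7 probes), where all had -1.22. The part of brightness and of GC content in the difference between the members and all mRNAs was not tested.

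Probes of one mRNA mostly read the same direction. Of 9 members with 2 or more fully measured probes, 8 had probes that all changed in one direction, as had 2480 of 3077 such coding mRNAs. The median SD of the change between probes was 0.28, against 0.30 for all 3077. This spread is technical and does not stand for the spread between preparations. Over all probes, dim ones included, the SDs of the inducible members Zkscan1 and Zbtb6 were larger, at 1.31 and 1.05, and 23 of the 41 members had only 1 probe.

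Several members lie near each other in the genome. Within 200 kb on mm9, 14 of the genes fell into 6 groups when only probes whose span on the genome equals their length were counted. The probes of Zbtb8os, Zscan21 and Zbtb34 have another span and were left out, so both counts are lower limits. Besides Zbtb6 and Zbtb26, the pair of Zscan12 and Zkscan3 on chromosome 13 changed by 0.94 and 0.82, and Zkscan5 and Zkscan14 on chromosome 5 by 0.47 and 0.34. Zscan22 and Zbtb45 on chromosome 7 changed by -0.47 and -0.97. On chromosome 12 the neighbours went opposite ways, with Zbtb1 at 1.22 and Zbtb25 at -0.74. On chromosome 4, Zbtb8a lies between Zbtb8os and Zbtb8b. Zbtb8a changed by -0.73 and Zbtb8os by -0.93, and Zbtb8b did not pass the filter. Zkscan1 and Zscan21 on chromosome 5, also within 200 kb, changed by 1.92 and 0.23. Zbtb34, a neighbour of Zbtb43 on chromosome 2, did not pass the filter.

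Some genes of the same domain families under other names were read alongside, from incomplete lists and with no test between the lists. Of 12 listed accessions of BTB zinc finger genes with other names, 9 passed, with a median change of 1.33. Of these 9, 5 were inducible and 1 sensitive (8.86% and 47.0% of all mRNAs). Bcl6, the repressor of germinal centre B cells, had the highest change, from -1.23 to 0.97, by 2.20. Zfp131 followed with 1.47, Hic2 with 1.46, Zfp238, the repressor now named Zbtb18, with 1.39, and Gzf1 with 1.33. Mynn had 0.84 and a probe not well above background. Zfp161 had -0.16, Patz1 -0.62 and Hic1, a tumour suppressor, -0.83.

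Of 11 listed accessions of SCAN genes with other names, 5 passed, with a median change of 1.15. Of these 5, 4 were inducible (8.86% of all mRNAs). Zfp263 had 1.71, Zfp397 1.15 and Zfp202 1.03; Zfp445, which helps to keep genomic imprints, had 2.26 with a probe not well above background. Scand1, which holds a SCAN domain and no zinc fingers, was lower by 2.38 and was the sensitive one. The large group of zinc finger genes named Zfp and a number had 193 of 294 accessions that passed, with a median change of 0.60, or -0.36 with A above 7. Of these, 69 were inducible, or 35.8%, and 30 sensitive, or 15.5% (8.86% and 47.0% of all mRNAs). Its highest fully measured changes were those of Zfp120 (2.93) and Zfp292 (2.84) and its lowest those of Zfp593 (-3.10) and Zfp524 (-2.55). It includes 3 of the 9 BTB mRNAs and 4 of the 5 SCAN mRNAs counted above, so these are counted in both places. It also holds genes of these domains that those lists left out. Among them were Zfp191 (0.53), Zfp449 (0.24) and Zfp444 (-1.87) with a SCAN domain and Zfp651 (-1.53) with a BTB domain. The medians and counts of those lists therefore hold for the listed genes only. Among the 140 fully measured mRNAs of the Zfp group, 47 were inducible, or 33.6%, where 3 of the 28 fully measured members were. This difference was not tested.

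BTB genes without zinc fingers, many of them adaptors of Cul3, had a median change near that of all mRNAs. Of 75 accessions 42 passed, with a median change of -0.63, 4 inducible (9.52%) and 18 sensitive (42.9%); the sign of this median turned to 0.38 with normexp background correction and to 1.92 with spike-in centring. Klhl28 (1.88) and Kbtbd2 (1.34) were highest, and Kctd17 (-3.53) and Btbd2 (-2.95) lowest.

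All 21 accessions listed as corepressors and Cul3 partners passed the filter, with a median change of -0.84, none inducible (8.86% of all) and 11 sensitive, or 52.4%, near the 47.0% of all mRNAs. Of the deacetylases, Hdac3 changed by -2.05, Hdac7 by -1.88, Hdac5 by -1.54, Hdac2 by -0.63 and Hdac4 by -0.10. Also sensitive were Ctbp1 (-1.89), Nacc1, itself a BTB protein (-1.73), Ctbp2 (-1.08), the ligase scaffold Cul3 (-0.96), the KRAB partner Trim28 (-0.89) and Gps2 (-0.84). Ncor1 had 0.63, Tbl1x -0.50, Tbl1xr1 0.18, Bcorl1 -0.35, Sin3a 0.12 and the ring protein Rbx1 0.93.

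Sin3b and Bcor each had 2 accessions that disagreed. Sin3b had -2.98 (NM_001113248) and 0.55 (NM_009188), and Bcor had -0.88 (NM_175046) and 0.70 (NM_029510). The median of the corepressor list, -0.84, lay near the -0.71 of all mRNAs and below the 0.44 of the members; the difference was not tested.

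**Figure D4:**
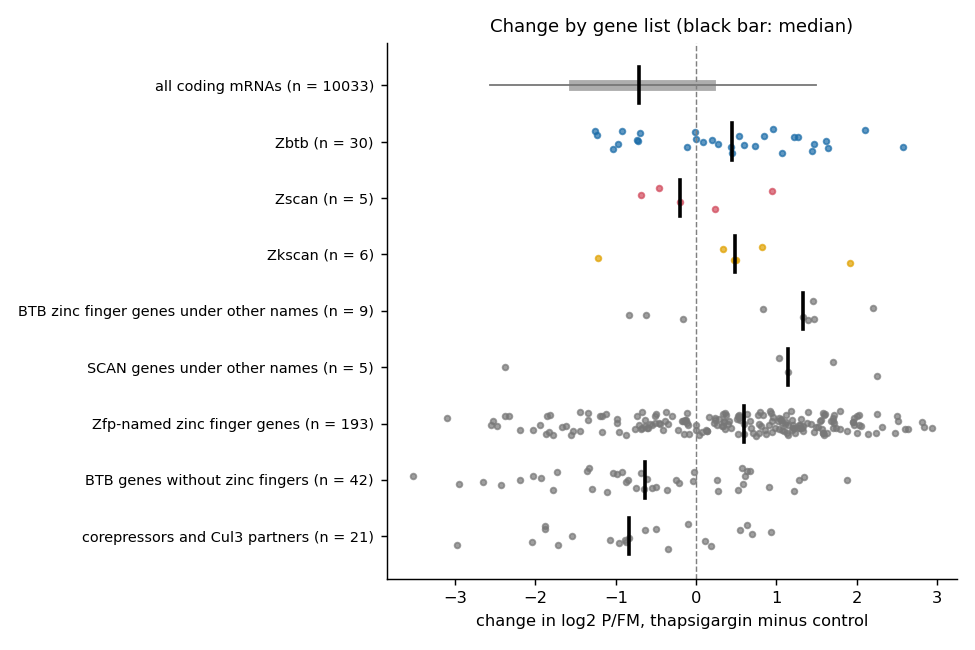
Change in log2 P/FM, thapsigargin minus control, for each mRNA that passed the filter in the member families and the comparison lists, with the median of each as a line, and for all coding mRNAs the 25th to 75th percentile as a thick bar and the 5th to 95th as a thin line. Zinc finger lists have medians above the -0.71 of all mRNAs; the BTB list without zinc fingers (-0.63) and the corepressor list (-0.84) lie near it.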

How the data were processed

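Per the labels, polysomal and free plus monosome RNA of control and thapsigargin-treated NIH3T3 cells was labelled with Cy3 and Cy5, from volumes that kept the proportions of the fractions, and hybridised to 2 two-colour Agilent arrays. The deposited intensity values were extracted from the scans by Feature Extraction 10.7.1 per the labels and not normalised. The deposited files also hold processed intensity values and flags of other kinds, and the authors deposited log2 ratios of Cy3 to Cy5 after their background correction; these served as alternatives.

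Background was removed in Python 3.11.15 by the method the study names, as mean spot signal less median local background with results under 0.5 set to 0.5. No normalization was applied. The limma 3.58.1 package (R 4.3.3) gave the same values, and it served for the alternatives with normexp, without background subtraction and with loess. Of 43379 spots, 295 flagged as outliers were left out, none of them of a member. Spots were averaged by probe and probes by accession on the log2 scale. Coding mRNAs were accessions starting with NM. Of the 54 member accessions, 53 matched a RefSeq gene table (GRCm38.p6) that served for names, and no symbol differed. Positions are those of the files, on mm9.

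Values of probes that did not exceed background clearly are uncertain, and no firm limits were set for them. The number of arrays limits the precision, and with 1 array per condition no p-value was computed. Every member that passed the filter is named; both signals are given for the 5 largest rises and falls among fully measured members, resistant members and the 3 brightest, and further signals were given after the values were seen. In comparison lists the 2 highest and lowest fully measured changes are named, and others were added after the values were seen. The members, lists and thresholds were chosen with earlier results of these data known. The whole procedure was tested on simulated data with 10033 mRNAs, where all 200 rises and 200 falls of 2 on the log2 scale, set with an SD of 0.2, were found; sizes so far past the thresholds check the code, not the power to find small changes. One item of a comparison list is not reported here. Alternatives covered background correction, signal, centring, filters and the unit counted.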

Additional observations from a re-analysis of the deposited data

How the results depend on the processing

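The median change of the members relative to all mRNAs was positive in all 15 alternatives, from 0.18 to 1.15, though median and spike-in centring cannot move it; the values that moved most were 0.18 with normexp, 0.30 without background subtraction, 0.36 with A above 7 and 0.77 after loess. The median change itself was -0.74 with A above 7, 0.044 with every probe well above background, 0.13 without background subtraction, 1.06 with each array centred on its median and 2.99 with spike-in centring. The control median was -0.65 with median centring and 0.093 with spike-in centring. The thapsigargin median was -0.14 without background subtraction, -0.022 with normexp, 0.36 after loess, 0.42 with processed signals and 3.01 with spike-in centring. The median change in A was -1.25 with normexp and 0.11 with processed signals.

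The number of inducible members, with the share of all mRNAs in parentheses, was 0 with A above 7 (5.10%), 2 of 54 without background subtraction (2.98%), 3 with A above 5.5 (7.68%) or with every probe well above background (7.52%), 4 of 54 with normexp (4.43%), 19 with spike-in centring (21.6%) and 20 with median centring (18.4%). Sensitive members numbered 0 with loess (27.2%), median centring (27.3%) or spike-in centring (0.638%), 1 with processed signals (33.3%), 3 with normexp (13.4%) and 13 without the filter on A (45.8%). Of the members past 1 in either direction, the share that was lower was 28.6% (80.5% of all mRNAs so called), and 0% under loess (55.3%), median centring (51.8%), processed signals (62.1%) and spike-in centring (0.418%), which raises nearly all mRNAs; it was 57.1% with A above 5.5 or every probe well above background, and 100% with A above 7.

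With spike-in centring the changes of Zbtb12, Zbtb17, Zkscan17, Zbtb22, Zbtb45 and Zbtb8os were 1.29, 1.32, 1.33, 1.52, 1.58 and 1.62, and that of Zkscan17 was 0.10 after loess and 0.11 with processed signals. The Zscan median was 0.23 with A above 5.5, with each probe counted and with measured probes alone. With A above 7 only Zscan21 remained, at 0.23. The median was 0.38 with processed signals, 0.43 with median centring, 0.51 with normexp and 2.35 with spike-in centring. The Zbtb median was -0.83 with A above 7 and -0.0073 with every probe well above background. With A above 7 the Zkscan median was -0.20, on Zkscan3 and Zkscan17 alone, and the Zfp median -0.36. That of BTB genes without zinc fingers was 0.38 with normexp and 1.92 with spike-in centring. The cause of these moves was not tested, except that centring adds a constant and stricter filters leave fewer mRNAs. The median change of all mRNAs moved from -0.71 to 0.33 with normexp, -0.17 without background subtraction, -0.30 with processed signals, -0.15 after loess, -0.08 with median centring and 1.84 with spike-in centring.

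With normexp or without background subtraction every one of the 18743 accessions passed the filter on A. No paired analysis was possible because each condition has 1 array, and no replicate was left out for the same reason. Dim probes limit the inducible calls, since 7 of the 10 rest in part on probes not well above background.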
